A study of Caenorhabditis elegans with 2 samples.

Results

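Mitochondrial ribosomal protein genes were taken as all protein-coding genes whose names begin with mrpl- (large subunit) or mrps- (small subunit) in the Ensembl annotation of the worm assembly WBcel235, which has the same sequence as ce11. There were 70 of them among 19973 nuclear coding genes, 41 named for the large subunit and 29 for the small one. The X chromosome carried 0 of the 70, against 13.7% of all other coding genes. The data were a chromatin immunoprecipitation (ChIP-seq) experiment on Caenorhabditis elegans strain RW12327, in which the ceh-44 gene itself carried a CRISPR insertion of TY1, EGFP and 3xFLAG. Whole larvae, synchronised by starvation after bleaching, were collected as L4 larvae at 49 hours, their chromatin was sonicated to 200 to 800 bp, and tagged CEH-44 was recovered with an antibody against GFP. The study held 2 biological replicates of this 1 group, with no second condition, so every value below describes binding in 1 state and no difference between conditions was measured.

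Mitochondria translate the few proteins encoded by their own DNA on a ribosome descended from that of bacteria. All protein subunits of that ribosome are encoded in the nucleus, made in the cytosol and imported, so its assembly depends on nuclear transcription. Some of its proteins have bacterial counterparts and share their numbers, and others arose with mitochondria and carry higher numbers. In C. elegans, knockdown of mrps-5 is known to extend lifespan and to induce the mitochondrial unfolded protein response. CEH-44 is a homeodomain protein of the CUT family, related to mammalian CUX factors and known for its expression throughout the nervous system. In whole larvae, strong binding in few cells and weak binding in many cells cannot be told apart.

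The authors deposited ranked lists of candidate peaks and, out of these, thresholded lists that keep peaks repeated at an irreproducible discovery rate (IDR) of 0.01 or less. The larger series list, made from both replicates, held 1027 thresholded peaks out of 115557 candidates, with a median signal of 75.96. Signal is the authors' own value for each peak, its scale is not stated, and it was compared only within a list. A gene was called bound when a thresholded summit fell in its promoter window, which ran from 1000 bp before its most upstream start to 200 bp after it. The best candidate of a gene was the candidate of highest signal in the same window, and its rank percentile was its place among all candidates by signal, with low percentiles for strong ones. Sequencing depth is unknown, so no error could be set on a single signal.

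In the main setting, the bound share of the mitochondrial ribosomal protein genes was near that of other coding genes. It rests on 3 genes, and its relation to the background changed with the window and the replicate. Of the 66 members with any candidate in the window, 3 were bound (4.55%, exact 95% binomial interval 0.947 to 12.7%, counting error only), against a background of 3.71% over all 16131 coding genes with a candidate. The share among the other coding genes alone was 3.70%, inside that interval. The bound genes were mrpl-23 and mrpl-15, both coding for large subunit proteins with bacterial counterparts, and mrps-35, which codes for a small subunit protein specific to mitochondria. The conservative series list gave the same 3 genes out of 67 with a candidate (4.48%), against a background of 3.65%.

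The strongest of the 3 peaks lay in the window of mrpl-23, a large subunit protein whose bacterial counterpart sits beside the exit of the peptide tunnel. Its signal of 177.7 ranked 32 among the 1027 thresholded peaks. In the replicates' own ranked lists the best candidate stood at 74.8 (replicate 1) and 96.7 (replicate 2), and the peak was in the thresholded list of each. The peak (I:6212733-6212988) had its summit 976 bp upstream of the start of mrpl-23, close to the edge of the window. It lay within an intron of the neighbouring gene fars-1, which codes for a phenylalanyl-tRNA synthetase subunit and ends 96 bp upstream of mrpl-23 on the same strand. The summit was 37 bp from T08B2.13, a snoRNA gene in that intron. With peaks within 250 bp of a tRNA, snoRNA or snRNA gene left out, mrpl-23 was no longer bound and 2 members were (3.03%, other coding genes 3.17%).

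The peak at mrps-35 lay closest to a member's own start among the 3. Its signal was 87.8, rank 350 of the thresholded list, with 49.7 in replicate 1 and 37.0 in replicate 2. It passed in the own thresholded list of replicate 1 and not in that of replicate 2, where the candidate stood at the 1.40 rank percentile. The summit was 135 bp upstream of mrps-35 and inside the annotated 5′ UTR of sws-1, a gene on the opposite strand coding for a SWIM-domain protein involved in recombination. The starts of these genes overlap: sws-1 begins 173 bp inside mrps-35, so the summit was 308 bp downstream of the start of sws-1 and outside its window.

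The weakest of the 3 was mrpl-15 (I:1435588-1435843), whose intergenic summit was 563 bp upstream of the start. Its signal of 57.2 ranked 926, with 26.3 in replicate 1 and 36.1 in replicate 2, and it passed in neither replicate's own list. Of the 30-base words within 100 bp of this summit, 11.0% occurred more than once in the nuclear genome, against 0% at the other bound members. With the window shortened to 500 bp upstream, mrps-35 was the only bound member.

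**Figure D1:**
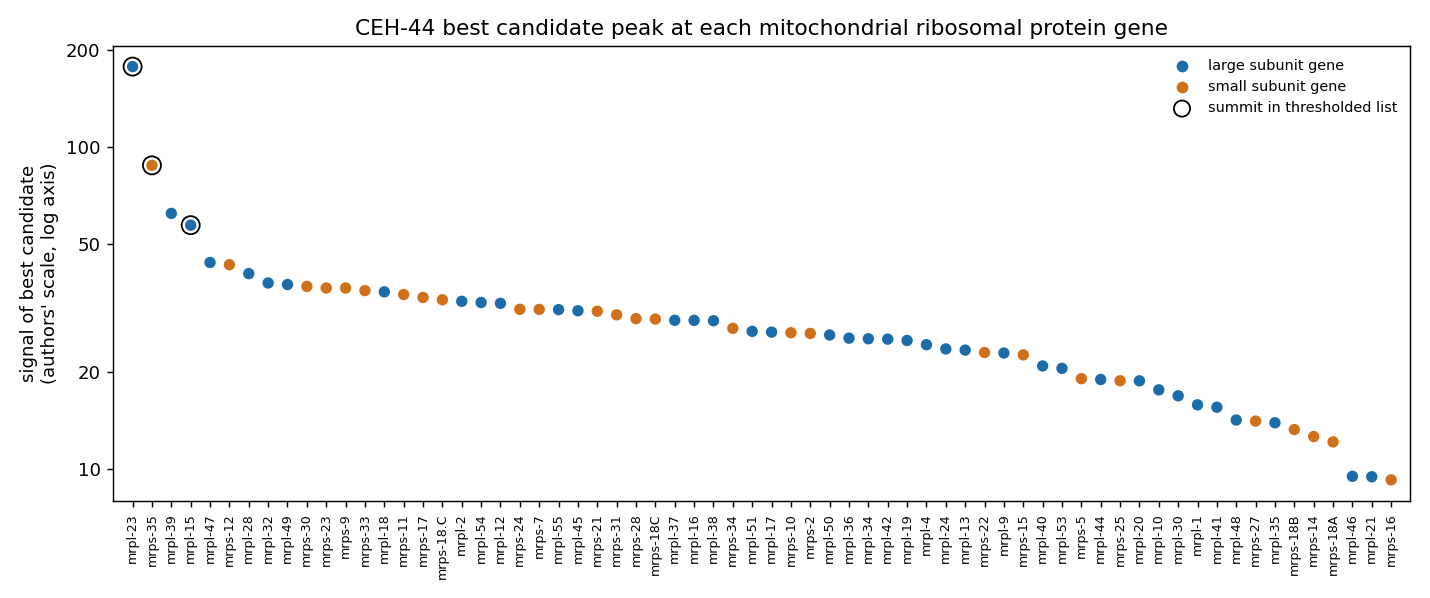
Signal of the best candidate peak in the larger series list (vertical log axis, authors' scale) for each of the 66 mitochondrial ribosomal protein genes with a candidate, ordered by signal, with large subunit genes in blue, small subunit genes in orange and bound genes ringed. Signals run from 177.7 at mrpl-23 to 9.28 at mrps-16, and the unbound mrpl-39 stands above the bound mrpl-15.

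Candidates below the threshold gave a value for the remaining 63 members with a candidate. The signal of mrpl-39, 62.3, stood apart from the other 62, which ran from 43.8 at mrpl-47 down to 9.28 at mrps-16. The candidate at mrpl-39, which codes for a large subunit protein specific to mitochondria, had a higher signal than the bound mrpl-15 but an IDR of 0.0642, with 20.8 in replicate 1 and 38.2 in replicate 2. It was 162 bp upstream of the start of mrpl-39, in a region shared with gly-7, an N-acetylgalactosaminyltransferase gene that starts 256 bp away in the opposite direction. Across the ranked list, 212 candidates outside the thresholded list had a signal above that of mrpl-15, so mrpl-39 was 1 of many such sites.

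After mrpl-39 came mrpl-47, with a signal of 43.8 at a summit 2 bp inside its own 5′ UTR with 16.2 in replicate 1 but no candidate in its replicate 2 window. The candidate of mrps-12, which codes for a protein of the decoding centre, had a signal of 43.1 and an IDR of 0.162. Its summit was 45 bp inside the gene and also in the window of exos-7. The best candidate was 23.5 in replicate 1 (4.58 rank percentile) and 24.4 in replicate 2 (8.52 rank percentile). That of mrpl-28 had a signal of 40.5 at 489 bp upstream. The candidates of mrpl-32 and mrpl-49 lay in coding exons of upstream neighbours, at 37.9 in rpn-3, a proteasome gene, and at 37.5 in rpl-28, a cytosolic ribosomal protein gene. Those of mrps-30, mrps-23, mrps-9 and mrps-33 had signals of 37.0, 36.5, 36.5 and 35.9, and each was within 126 bp of the gene's start. The mrps-23 summit lay in an intron of prp-40, and the mrps-33 summit was also in the window of F21D5.5. The highest −log10 IDR of any unbound member was 1.19, that of mrpl-39, against at least 2 for a thresholded peak.

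At the other end, mrpl-46, mrpl-21 and mrps-16 had best candidates of 9.52, 9.49 and 9.28, below the median candidate signal of 18.6. mrps-5, the gene known for its effect on lifespan, had a best candidate of 19.1 at the 48.0 rank percentile, at a summit 426 bp upstream, in the 3′ UTR of the same-strand neighbour sel-1. Replicate 2 had a candidate of 21.3 at that site, and the replicate 1 candidate of 14.8 lay elsewhere in the window. No candidate was listed in the windows of mrpl-11, mrpl-22, mrps-26 and mrps-6. The share without a candidate was 5.71% among members and 19.3% among other coding genes, and the windows held a mean of 1.71 candidates against 1.39.

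Over all members with a candidate, the 3 bound ones included, the median rank percentile was 22.7 (quartiles 9.96 and 46.6), against 31.3 for other coding genes (12.7 and 55.1). By signal the medians were 26.7 and 23.7. Best candidates in the top 10% of the ranked list were found at 17 of 66 members (25.8%), against 21% of all coding genes. The best was taken from more candidates at members, a mean of 1.71 per window against 1.39 for other coding genes. None of these comparisons was adjusted for that. The median percentile was 16.7 for the 27 small subunit genes with a candidate and 26.0 for the 39 large subunit genes. The order was reversed in replicate 1 (32.5 for small and 23.5 for large subunit genes) and was that of the series list in replicate 2 (24.2 and 40.3). Subunits were assigned by name here, although the mammalian counterparts of mrps-30 and mrps-18A are now known as large subunit proteins. Members with bacterial numbers had a median of 24.8 (2 of 38 bound), and those numbered as specific to mitochondria had a median of 17.5 (1 of 28 bound). The replicates' own lists had the opposite order, with medians of 19.9 and 46.2 in replicate 1 and nearly equal ones of 33.9 and 35.4 in replicate 2.

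**Figure D2:**
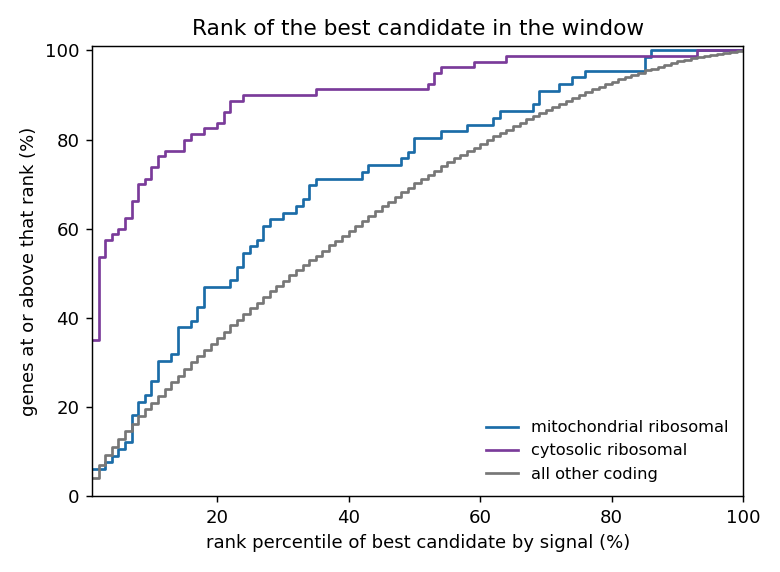
Share of genes with a candidate (vertical axis, %) whose best candidate lies at or above each rank percentile by signal (horizontal axis, %) in the larger series list, for mitochondrial ribosomal protein genes (blue), cytosolic ribosomal protein genes (purple) and all other coding genes (grey). The medians are 22.7, 1.75 and 31.3, and the blue curve runs with the grey one over the strongest candidates.

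The replicates gave unequal values. In replicate 1, 44 members had a candidate, with a median percentile of 26.2 against 36.6 for other coding genes. In replicate 2, 52 had one, with a median of 35.4 against 36.4. By each replicate's own thresholded list, 3 members were bound in replicate 1 (6.82%, background 2.31%) and 1 in replicate 2 (1.92%, background 2.64%). mrpl-23 was bound in both, mrps-35 and mrps-21 in replicate 1. Over the 36 members with candidates in both replicates, best signals correlated weakly (Spearman's rho 0.20, a description over genes that share the same libraries). For 8071 other coding genes rho was 0.37. The best candidates of a gene in the 2 replicates need not lie at the same site. At 29 members the best site of the series list overlapped a candidate of both replicates.

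The top 10% of both replicates' lists held 5 members, out of 11 in replicate 1 and 8 in replicate 2, namely mrpl-23, mrps-35, mrpl-15, mrpl-39 and mrps-12. These include the 3 bound genes and the strongest unbound one. The series list was made from both replicates and its thresholded part keeps repeated peaks. Their presence here thus follows in part from that selection and is not separate support. The shares in the top 10% were 25% of members with a candidate against 18.3% of all coding genes in replicate 1, and 15.4% against 18.4% in replicate 2, the opposite direction to the series list. Other members were high in 1 replicate. mrps-31 reached 31.6 in replicate 1 (1.32 percentile) and had no candidate in its replicate 2 window. mrps-7 had 29.1 in replicate 2 (3.65 percentile), and its best replicate 1 candidate, 17.2, was at another site in the window.

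**Figure D3:**
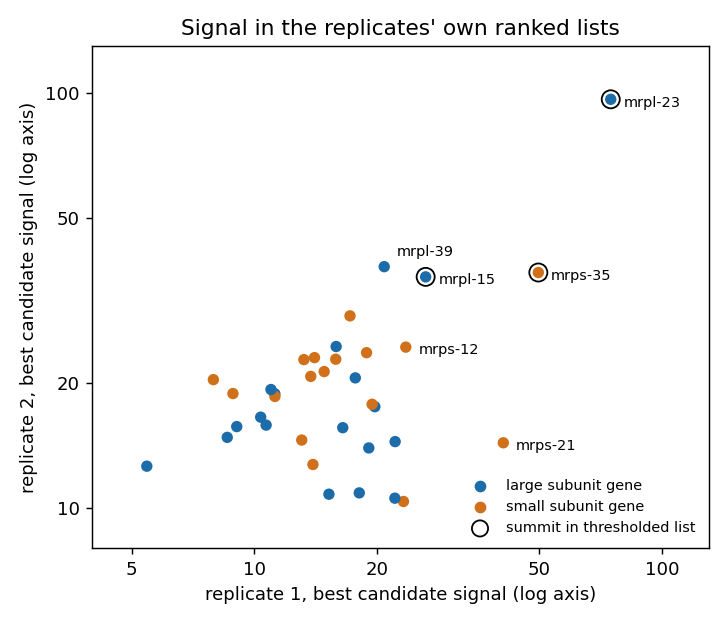
Best candidate signal in the window in the own ranked list of replicate 1 (horizontal log axis) against replicate 2 (vertical log axis, both on the authors' scale) for the 36 mitochondrial ribosomal protein genes with a candidate in both, coloured by subunit, with genes bound in the series list ringed. mrpl-23 is alone at the upper right (74.8 and 96.7), and mrps-21 is high within the window in replicate 1 (40.8), its replicate 2 peak of 66.4 lying just outside.

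The arrangement of neighbouring genes bears on which gene a summit is assigned to. A coding gene on the same strand ended within 500 bp upstream of 27 of the 70 members (38.6%), against 18.0% of other coding genes, with a median gap of 106 bp against 187 bp. Close same-strand spacing is known in this species from operons, whose downstream genes are transcribed from the promoter of the first gene. A divergent coding start lay within 1000 bp upstream of 26 members (37.1%), against 17.7%. Of the 25 members with such a neighbour and a candidate, 0 were bound, against 8.57% of other coding genes with one. Of the 41 with a candidate and no such neighbour, 3 were bound (7.32%), against 2.59% of other coding genes. Median rank percentiles were 22.5 against 23.2 with such a neighbour and 23.5 against 33.0 without one. A count of 0 allows a share of up to about 12%, a rough limit (3 divided by 25) unlike the exact intervals elsewhere. The bound mrps-35 was not among the 25, because its opposite-strand neighbour sws-1 starts inside it and not upstream.

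Binding was also counted at the first gene of each same-strand run. Among the 27 members that were not first, the first gene was bound for 5 (18.5%). The share was 6.47% for 3588 other coding genes in that position, a comparison made after the data were seen. No counting interval was set on it, and it rests on 5 genes. The first gene was bound for 4 of 12 small subunit genes and 1 of 15 large subunit genes. For mrpl-23, itself bound, the first gene fars-1 was not bound. The strongest of the 5 peaks, with a signal of 234.4 and rank 16, was at nrde-2. This nuclear RNAi gene precedes mrps-14 by 106 bp. The summit was 924 bp upstream of nrde-2 and 6072 bp upstream of mrps-14 itself, and it was also in the window of atad-3, which codes for a mitochondrial membrane ATPase. The peak at F29B9.11, 114 bp upstream of mrps-21, had a signal of 111.1 and was also in the window of the demethylase gene jmjd-1.2. The peaks at eif-3.E, T14B4.3 and cct-2, the first genes for mrps-30, mrps-18.C and mrpl-50, had signals of 82.3, 63.9 and 56.8. The gene eif-3.E encodes a translation initiation factor subunit and cct-2 a chaperonin subunit. Of the 5 peaks, 4 were shared with the window of a further coding gene, so they cannot be given to the first gene of the run alone. The 5 summits were 12989 bp or more from any tRNA, snoRNA or snRNA gene. The peaks at nrde-2 and F29B9.11 passed in both replicates' own lists, and that at eif-3.E in replicate 2 only. Those at T14B4.3 and cct-2 passed in neither, and the cct-2 peak was not in the conservative series list. Whether these runs are single transcripts was not tested.

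Peaks beyond the window were counted next. A thresholded summit lay within 5000 bp of the start of 14 members (20%), against 10.4% of other coding genes, and 11 of the 14 were unbound. The set held 9 small subunit and 5 large subunit genes, and 6 of its 17 peaks were within 250 bp of a small RNA gene. The same share over all thresholded peaks is not given here, so this count describes these peaks only. A pair fell just outside the window: at mrps-28, with a summit 1044 bp upstream and a signal of 172.3 (68.8 in replicate 1, 102.0 in replicate 2), and at mrps-21, with a summit 1040 bp upstream and a signal of 111.1 (40.8 and 66.4). In replicate 1's own list the summit at mrps-21 was 56 bp nearer, at 984 bp, so the gene was bound there. The mrps-28 peak was 8 bp from the snoRNA gene Y43F8C.22, in an intron of the divergent gene Y43F8C.7. No thresholded summit lay inside any member gene.

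**Figure D4:**
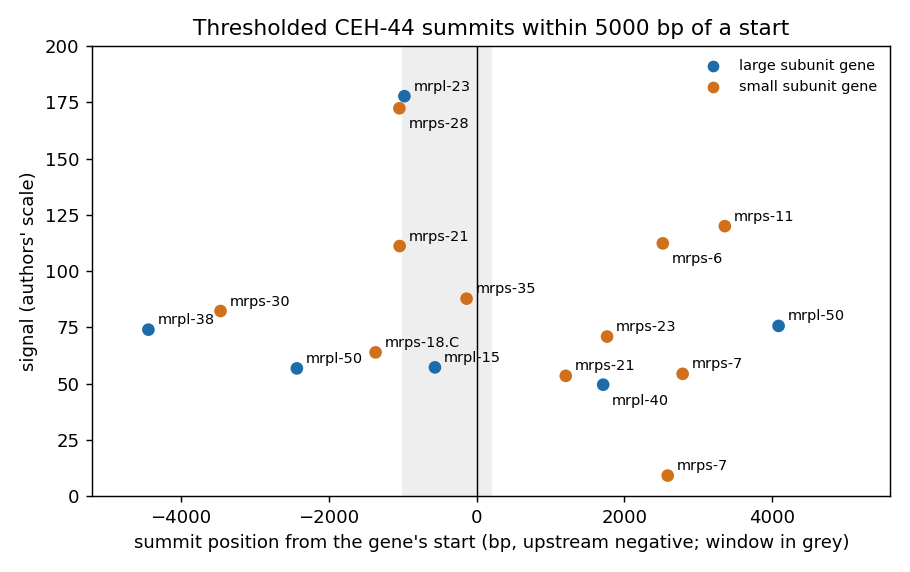
Position of each thresholded summit within 5000 bp of a mitochondrial ribosomal protein gene's start (horizontal axis, bp, upstream negative) against its signal (vertical axis, authors' scale), by subunit, with the window used to call a gene bound in grey. Of 17 peaks at 14 genes, 3 lie in the window and those at mrps-28 and mrps-21 lie just upstream of it.

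The best candidates lay at a median of 391 bp upstream of the start (quartiles 711 and 13 bp upstream), against 369 bp for other coding genes. They fell in coding exons at 34 members, in intergenic sequence at 21, in introns at 5, and in 5′ and 3′ UTRs at 3 each. Of the 66, 25 also lay in the window of another coding gene. No counterpart for other coding genes is given for these counts, so they describe the members only. Within 200 bp of the start were 28 members' best candidates (42.4%, other coding genes 34.7%). Those 28 had a median rank percentile of 13.6, against 30.2 for other coding genes at that distance. The 38 farther ones had a median of 32.0, against 32.1. This split was made after the data were seen.

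Sequence around the summits was searched on both strands within 50 bp for words related to CUT homeodomain sites, namely ATCGAT along with ATCAAT (or its reverse complement) along with ATTAAT. Also searched were GAGAGA, a purine repeat, and then GTTCGA, the core of the B box of tRNA promoters. At least 1 of the 3 CUT words was present at 15 of the 66 best candidates (22.7%), against a mean of 17.4% in flanks 300 bp to either side, and at 16.0% of the best candidates of other coding genes. ATCGAT alone was present at 6 of 66 (9.09%), against 6.06% in the flanks and 3.54% at other coding genes. ATCAAT was present at 10.6% of the best candidates and at 10.6% of the flanks. None of the 3 bound summits held a CUT word, and of all thresholded peaks 9.93% did, below their flanks (21%). ATTAAT was present at 4 of the 66 best candidates (6.06%), against 3.03% in the flanks and 4.42% at other coding genes. GAGAGA was found at 7 of 66 (10.6%, flanks 6.06%, other coding genes 7.73%, thresholded peaks 14.8%). GTTCGA was found at 2 (3.03%, flanks 6.82%, other coding genes 4.17%, thresholded peaks 18.1%). The members' best candidates had a median GC content of 39.6%, equal to that of other coding genes, against 50.5% for thresholded peaks. In the 250 bp upstream of the start, ATCGAT occurred at 12 of 70 members (17.1%) and 10.2% of other coding genes, ATCAAT at 25.7% and 26.8%, and ATTAAT at 27.1% and 17.8%.

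The sequences at 5 sites show this range, read on the member's strand from ce11, with the searched words in capitals. They are the bound mrps-35 (V:18981157-18981185, shortened because it lies in a 5′ UTR), the strongest unbound candidate mrpl-39 (V:1821367-1821467), a start-proximal candidate with ATCGAT and GAGAGA at mrps-33 (IV:8739923-8740023, in its coding exon), and the thresholded peaks just outside the windows of mrps-21 (IV:4660507-4660607) and mrps-28 (V:19643145-19643245).
mrps-35: aaaatgagcctggggactagttcagagtt
mrpl-39: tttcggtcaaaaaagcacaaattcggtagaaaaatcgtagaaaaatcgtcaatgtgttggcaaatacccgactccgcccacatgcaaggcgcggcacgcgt
mrps-33: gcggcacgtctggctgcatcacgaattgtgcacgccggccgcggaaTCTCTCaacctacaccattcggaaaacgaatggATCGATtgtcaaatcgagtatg
mrps-21: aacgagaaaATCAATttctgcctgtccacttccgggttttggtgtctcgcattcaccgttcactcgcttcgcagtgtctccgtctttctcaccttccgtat
mrps-28: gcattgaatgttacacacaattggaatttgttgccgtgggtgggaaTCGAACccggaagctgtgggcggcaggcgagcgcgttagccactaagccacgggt
The mrps-28 site holds the reverse complement of GTTCGA beside its snoRNA gene, the mrps-21 site holds ATCAAT, and the mrps-35 and mrpl-39 stretches hold none of the words searched. A match is a description of these letters and not a measured site.

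Other genes of mitochondrial translation and function were counted the same way. Among mitochondrial tRNA synthetase genes, which charge tRNAs for this ribosome, 1 of 9 with a candidate was bound, ears-2 (glutamyl-tRNA synthetase), with a signal of 124.9 in a window shared with uncp-18. Mitochondrial translation factors (0 of 5), mitochondrial ribosomal or assembly proteins with other names (0 of 2) and genes of mitochondrial DNA maintenance and transcription (0 of 5) had no thresholded summit. Protein import had 1 of 17, mppb-1 (a processing peptidase subunit), with a signal of 112.2. All are to be read against the background of 3.71%, and in lists this short a single gene sets the share.

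Of respiratory chain genes, 6 of 34 were bound (17.6%, exact 95% interval 6.76 to 34.5%), with a median rank percentile of 9.36. That median was 16.3 in the conservative list, 19.2 in replicate 1 and 12.7 in replicate 2. The strongest were cox-5B with 140.5, cox-5A with 125.5, atp-5 with 114.5 and cox-6A with 105.6, coding for subunits of cytochrome c oxidase and ATP synthase. The summit at cox-6A overlapped an snRNA gene. Cytosolic ribosomal protein genes were bound at 26 of 80 (32.5%, interval 22.4 to 43.9%), with a median rank percentile of 1.75. The mitochondrial ribosomal protein genes had 4.55% (interval 0.947 to 12.7%) in the same list. In replicate 1's own list the cytosolic share was 22.5% (13.5 to 34.0%) and the mitochondrial one 6.82% (1.43 to 18.7%). In replicate 2 they were 22.4% (13.6 to 33.4%) and 1.92% (0.0487 to 10.3%). The intervals hold counting error only, and the difference between the 2 gene lists was not tested. The cytosolic median rank percentile was 5.70 in replicate 1 and 5.68 in replicate 2. The strongest cytosolic members were rpl-3 with 240.0, rps-24 with 236.8, rpl-15 with 206.4 and rps-26 with 141.3. The summits of rpl-15 and rps-26 were shared with the windows of K11H12.8 and tmem-107, and that of rps-26 was 91 bp from the snoRNA gene F39B2.14.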

How the data were processed

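CEH-44 ChIP-seq peaks of 2 replicates were read from the authors' deposited lists on ce11. Their signal is as deposited, on a scale that is not stated, and the ranked lists give the authors' −log10 of the global IDR. The sources used here do not give the aligner, the peak caller or the depth. Control data were not analysed here. Replicates are biological per the labels. The 2 per-replicate signal columns of the conservative ranked list name no replicate and were not used.

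Genes, starts and UTRs came from Ensembl release 115. Shares have exact 95% binomial intervals for counting error only. No test was made, since the members and gene lists were chosen with earlier results of these data known. Named were all bound members, the 10 strongest unbound, the 3 weakest, mrps-5, members without a candidate, and up to 4 bound genes per pathway list. Others (run heads, peaks outside windows, replicate-specific members) entered with their values known. Of listed names not matched by prefix, 12 of 17 tRNA synthetases, 6 of 13 translation factors and 4 of 10 other-named proteins were found. Python 3.11.15, numpy 2.4.6, pandas 2.3.3 and scipy 1.17.1 were used, checked on simulated data.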

Additional observations from a re-analysis of the deposited data

How the results depend on the processing

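The members' bound share stayed within its counting interval (0.947 to 12.7%) under all alternatives, between 1.89 and 10.4%. It was 8.82% against 4.62% of other coding genes with 2000 bp and 7.35% against 3.80% with peak overlap. At the first gene of a run it was 10.4% against 4.68%, and in replicate 1 6.82% against 2.29%. It was below the other genes' share with 500 bp (1.89% against 3.42%), in replicate 2 (1.92% against 2.64%) and without small RNA gene peaks (3.03% against 3.17%). In the remaining settings it was above. The count of 3 became 1 with 500 bp upstream, 6 with 2000 bp, 5 when any peak overlap counted, and 7 at the first gene of a same-strand run, an alternative chosen after seeing the data. Leaving out a replicate gave 1 to 3. The members' median percentile then ran from 26.2 to 35.4, and was 22.7 with both. It was 21.1 with 500 bp, 15.5 with 2000 bp, 21.8 with any transcript start and 24.3 with the nearest start only. With peak overlap it was 17.7, at the first gene of a run 17.4, in the conservative list 21.2 and without small RNA gene peaks 22.7. For other coding genes the share of 3.70% became 4.62% with 2000 bp, 4.02% with any transcript start, 2.83% with the nearest start only, 2.00% with signal above the list median, 3.17% without small RNA gene peaks, 2.99% over all coding genes, 4.68% at the first gene of a run and 2.29 to 2.64% without a replicate. Their median percentile of 31.3 became 38.7 with 500 bp, 21.4 with 2000 bp, 28.2 with any start, 34.0 with the nearest start, 28.0 with peak overlap, 30.1 at the first gene of a run and 36.4 to 36.6 without a replicate. The causes were not tested beyond the wider or narrower windows. The CUT word share minus that of the flanks was 5.30 percentage points, and 3.03 to 9.09 under alternatives. Its limits by the counting error of the summit share, -5.39 to 16.0, include 0. No paired analysis was possible because there was 1 group. With 3 bound genes and unknown depth, small differences from the background were not detectable.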
